A study of Mus musculus with 24 samples.

Results

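The regions described are the intergenic peaks of open chromatin that lie more than 10000 bp and up to 100000 bp from the nearest transcription start site (TSS), here called distal intergenic peaks. They were taken from the deposited peak annotation by its class "Intergenic" and its distance column, and they number 32598 of the 150646 consensus peaks. Of the 52501 intergenic peaks, 15201 lay nearer to a TSS and 4702 lay farther away. The study measured chromatin accessibility with ATAC-seq, an assay that uses a transposase to tag DNA free of nucleosomes, in epithelial cells sorted from the small intestine of C57BL/6JRj mice. The sort kept cells that carried EpCam, a surface protein of epithelium, and lacked CD45, a surface protein of leukocytes. The groups were 3 libraries labelled aged (replicates 1, 2 and 4) and 3 labelled young (replicates 1, 2 and 4). No genotype or treatment is named for either group, and both shared the strain, the digestion of the gut, the sort and 17 cycles of library PCR. The series' design text gives 2 to 3 months for young and 20 to 22 months for aged mice, in sentences written for its RNA-seq and organoid experiments. The labels do not say whether each library came from a separate mouse or from pooled mice, so p-values measure the spread between libraries.

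Open chromatin far from promoters is where many enhancers lie. Enhancers are bound by transcription factors and can raise transcription of genes at a distance, often in a way that is particular to a cell type. In intestinal epithelium, factors of the CDX, HNF4, HNF1 and GATA families are known to bind such sites, and AP-1 factors bind distal sites in many stimulated cells. Distal open sites can also be insulators, unannotated promoters or repeats. The gene nearest to a distal peak is often, but not always, the gene it acts on, so the gene names below state position only.

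The labelled tissue was checked at promoters, with counts summed over peaks within 1000 bp of a TSS and scaled to CPM, counts per 1000000, of all promoter counts. A promoter peak was assigned to 8 of 10 epithelial markers, the exceptions being Vil1 and Krt19. The summed level of the 8 was 888 to 912 in aged and 931 to 963 in young libraries. Of 10 leukocyte markers only Cd68 and Coro1a had a promoter peak, with sums of 42.3 to 64.3 in aged and 42.9 to 44.2 in young libraries. Among those without a promoter peak were Ptprc, which encodes CD45, and Cd3e, Cd3g, Itgam, Csf1r and Laptm5. As for Vil1 and Krt19, this states that no peak was assigned, not that no reads lay there. Of 10 markers of stroma, endothelium and glia, 4 had a promoter peak, with sums of 41.5 to 44.4 in aged and 41.7 to 43.6 in young libraries. Total counts in peaks were 16900796 to 23935291 in the aged libraries, 22819924 and 20046684 in young replicates 1 and 2, and 6149680 in young replicate 4, the shallowest. In bulk cells, a change in the share of cells with an open site and a change in how open the site is per cell cannot be told apart.

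Sequence is shown for peaks that changed with age and that overlap a gene start in RefSeq, since start windows of 300 bases (250 before the start and 50 after it) were the genomic sequence at hand. They were chosen after the values were seen. Of the 32598 distal intergenic peaks, 513 overlapped such a window of build GRCm38.p6 although the deposited annotation placed the nearest start more than 10 kb away. Of the 470 of these that were tested, 8 were higher in aged libraries (1.70%, against 1.53% of all tested distal peaks and 1.07% of all tested peaks) and 4 lower (0.851%, against 0.324% and 0.528%). Among those called whose groups do not overlap, the 3 with the smallest p in each direction follow. Windows are printed 5′ to 3′ on the strand of the RefSeq gene, with capitals marking the bases inside the ATAC peak. The first 3 windows belong to peaks that were higher in aged libraries, and the last 3 to peaks that were lower.
Gm40289: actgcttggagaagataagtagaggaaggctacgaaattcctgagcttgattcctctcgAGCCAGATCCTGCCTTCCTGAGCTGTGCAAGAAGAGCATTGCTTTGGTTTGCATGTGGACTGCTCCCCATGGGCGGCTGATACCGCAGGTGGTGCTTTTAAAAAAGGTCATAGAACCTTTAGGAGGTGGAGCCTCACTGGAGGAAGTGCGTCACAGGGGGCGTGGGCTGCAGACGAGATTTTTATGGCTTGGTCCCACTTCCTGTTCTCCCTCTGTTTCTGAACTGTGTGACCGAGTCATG
Gm51814: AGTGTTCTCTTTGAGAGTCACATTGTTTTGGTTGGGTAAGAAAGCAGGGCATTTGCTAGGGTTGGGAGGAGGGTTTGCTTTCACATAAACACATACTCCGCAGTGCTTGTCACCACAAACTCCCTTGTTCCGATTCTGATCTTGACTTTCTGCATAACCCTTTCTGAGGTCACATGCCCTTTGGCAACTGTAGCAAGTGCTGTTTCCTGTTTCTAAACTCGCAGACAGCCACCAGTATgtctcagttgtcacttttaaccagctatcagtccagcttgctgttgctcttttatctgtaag
Gm31596: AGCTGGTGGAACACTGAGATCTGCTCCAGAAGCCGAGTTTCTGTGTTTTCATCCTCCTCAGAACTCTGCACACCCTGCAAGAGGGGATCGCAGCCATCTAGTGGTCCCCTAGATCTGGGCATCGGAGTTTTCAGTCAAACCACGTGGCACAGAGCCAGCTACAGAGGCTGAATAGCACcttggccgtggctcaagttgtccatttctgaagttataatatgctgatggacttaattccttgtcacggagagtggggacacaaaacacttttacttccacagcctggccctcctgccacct
Gm33341: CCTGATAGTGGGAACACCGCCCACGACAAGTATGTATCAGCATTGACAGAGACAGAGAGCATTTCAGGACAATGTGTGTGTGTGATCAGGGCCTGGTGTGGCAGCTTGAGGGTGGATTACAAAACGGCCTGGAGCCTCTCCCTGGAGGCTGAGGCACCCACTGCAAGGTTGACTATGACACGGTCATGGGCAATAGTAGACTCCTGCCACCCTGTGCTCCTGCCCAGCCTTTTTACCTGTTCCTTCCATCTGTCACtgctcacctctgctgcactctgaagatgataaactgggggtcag
A630001O12Rik: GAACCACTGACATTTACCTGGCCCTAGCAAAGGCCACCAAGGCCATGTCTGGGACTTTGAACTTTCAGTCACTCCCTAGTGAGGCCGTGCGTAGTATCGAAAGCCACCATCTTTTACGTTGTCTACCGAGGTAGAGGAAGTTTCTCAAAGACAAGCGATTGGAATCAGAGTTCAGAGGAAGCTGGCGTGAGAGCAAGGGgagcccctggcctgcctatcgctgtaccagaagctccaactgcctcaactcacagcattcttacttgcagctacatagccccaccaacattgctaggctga
BC024063: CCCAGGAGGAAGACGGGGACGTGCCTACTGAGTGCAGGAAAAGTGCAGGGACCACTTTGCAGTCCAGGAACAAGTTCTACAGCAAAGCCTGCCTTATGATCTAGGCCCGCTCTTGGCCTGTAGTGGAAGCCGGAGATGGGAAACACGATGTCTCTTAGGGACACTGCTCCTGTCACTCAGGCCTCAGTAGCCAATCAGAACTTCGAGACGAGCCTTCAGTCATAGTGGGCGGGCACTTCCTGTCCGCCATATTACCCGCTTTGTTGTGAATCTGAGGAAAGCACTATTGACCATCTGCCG

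The Gm40289 window lies on chromosome 5 (37971668 to 37971967, plus strand), and its peak was assigned to the lincRNA RP23-453O15.1 at 11666 bp. Its levels in CPM were 10.5, 9.49 and 9.94 in aged and 3.98, 4.80 and 4.78 in young libraries. The log2 fold change, aged over young, was 1.16 ± 0.16 (SE; edgeR quasi-likelihood test, adjusted p = 2.468e-05). Inside the peak, this window holds the CDX letters TTTATNG, a pair of the ETS letters CAGGAAG and the KLF letters GGGNGTGG. The Gm51814 window lies on chromosome 10 (19062529 to 19062828, plus strand), and its peak was assigned to Tnfaip3, which encodes an inhibitor of NF-kB signalling, at 53571 bp. Its capitals hold the HNF4 letters CAAAGNNCA once. The Gm31596 window lies on chromosome 3 (151912068 to 151912367, minus strand), and none of the 12 motifs searched was found in it. Its peak had 6.90, 5.52 and 5.17 CPM in aged and 3.30, 3.12 and 2.71 CPM in young libraries (log2 fold change 0.91 ± 0.19, adjusted p = 0.00631 in edgeR, but 0.0667 without aged replicate 1 and 0.0591 without young replicate 2).

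Among the windows of peaks that were lower, that of Gm33341 lies on chromosome 12 (107824140 to 107824439, plus strand). Its peak had 3.14, 4.72 and 5.45 CPM in aged and 7.55, 9.91 and 12.9 CPM in young libraries. The A630001O12Rik window lies on chromosome 8 (126848770 to 126849069, plus strand) and holds the HNF4 letters inside the peak. Its peak had 3.08, 1.46 and 3.12 CPM in aged and 5.72, 5.70 and 9.08 CPM in young libraries. The BC024063 window lies on chromosome 10 (82083070 to 82083369, plus strand), is inside its peak over its whole length and holds the ETS letters once. Its peak had 10.1, 7.23 and 9.54 CPM in aged against 15.9, 12.9 and 15.3 CPM in young libraries. The peaks of the printed windows were chosen for groups that do not overlap, so the lack of overlap is not a result. The last peak had an adjusted p of 0.0564 in edgeR without aged replicate 2.

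Motif letters were searched on both strands, with matches of different motifs allowed to overlap, in the 555 RefSeq start windows that touch a distal intergenic peak and in all 32851 windows. The HNF4 letters were in 11.2% of the former and 6.36% of all windows. AP-1 letters (TGANTCA) were in 10.8% against 7.81%, FOX letters (TGTTTAC) in 6.31% against 3.65%, and HNF1 letters (GTTAATNAT) in 1.98% against 0.801%. For CDX the shares were 13.3% and 10.9%, for the letters AGATAA of the GATA family 13.5% and 11.2%, for ETS 16.8% and 13.3%, for RUNX (TGTGGTT) 7.75% and 5.27%, and for KLF 20.4% and 17.6%. The CTCF letters (AGNGGGCGC) were at 2.52% and 2.88%, IRF letters (GAAANNGAA) at 6.67% and 8.56%, and NF-kB letters (GGANTTTCC) at 0.541% and 1.25%. Thus 9 of the 12 motifs were in a larger share of the 555 windows than of all windows, and 3 in a smaller one. These windows touch only 513 of the 32598 distal peaks, so the shares do not describe distal peaks in general. The windows compared were not matched for base composition or openness. A window can reach beyond the peak, and a match states only that these letters are there.

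Distal intergenic peaks had a median width of 212 bp (5th to 95th percentile 83 to 658 bp), close to that of nearer and farther intergenic peaks (208 bp each), intronic peaks (205 bp) and all peaks (223 bp). Promoter peaks were wider, at 414 bp. Of the 32598, 27147 (83.3%) passed the filter on low counts, and only these were tested. The median level of those tested was 2.18 CPM, below the 2.55 CPM of nearer intergenic peaks and the 9.97 CPM of promoter peaks, and above the 1.82 CPM of intergenic peaks over 100 kb away. A peak held a median of 25, 39 and 30 counts in the aged and 33, 32 and 11 counts in the young libraries. In young replicate 4, 765 distal intergenic peaks (2.35%) had no count, against 40 to 117 in the other libraries.

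A few distal peaks stood far above this median. The strongest, 50463 bp from Zfp36l2, which encodes an RNA-binding protein that promotes mRNA decay, lay on chromosome 17 (84136705 to 84138263). It had 185, 154 and 158 CPM in aged and 174, 151 and 151 CPM in young libraries, and the groups overlapped. The next was 16500 bp from Gm37169 on chromosome 2 (32470872 to 32472105), with 143 ± 12.1 CPM in aged and 135 ± 7.42 CPM in young libraries (SD, n = 3 each). The peaks near Bvht, Gm6651 and Gpr37l1 followed, with means between 99.2 and 114 CPM in either group. None of these 5 passed the test between ages, with adjusted p of 0.623 to 0.984 (edgeR quasi-likelihood test) and log2 fold changes of -0.05 to 0.21. With the replicate number as a block, the peak near Bvht passed (0.20 ± 0.06, adjusted p = 0.0285, edgeR with block).

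As a class, distal intergenic peaks took shares of the counts that differed between ages by less than the spread between libraries. They held 14.0%, 14.3% and 14.6% of the counts in aged replicates 1, 2 and 4, and 13.4%, 14.3% and 14.8% in the young ones. The means were 14.3 ± 0.28% and 14.2 ± 0.69% (SD, n = 3 each), a difference of 0.084 percentage points (exact two-sided permutation p = 1, adjusted 1 over 6 shares). With 3 libraries against 3, the smallest p this test can give is 0.1. By distance, the share of counts was 6.99 ± 0.10% in aged and 6.92 ± 0.29% in young libraries for peaks at 10 to 25 kb, 4.58 ± 0.11% and 4.56 ± 0.23% at 25 to 50 kb, and 2.70 ± 0.077% and 2.70 ± 0.17% at 50 to 100 kb. The sign of the difference changed when single libraries were left out, so it has no stable direction.

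**Figure D1:**
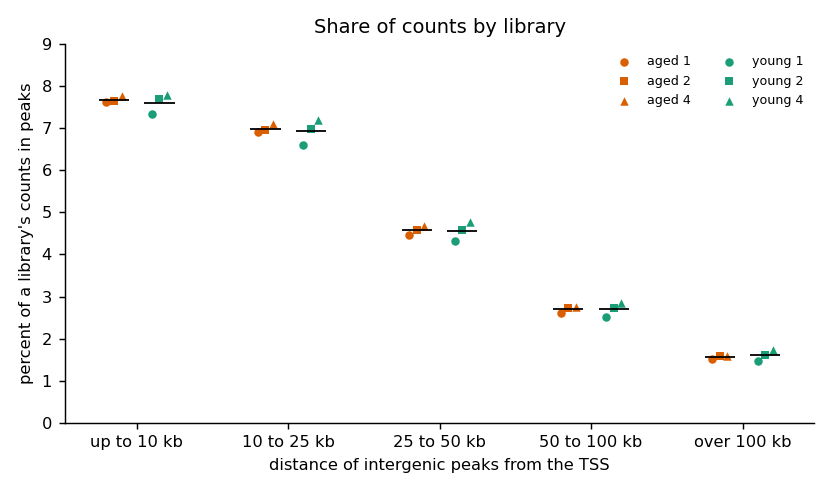
Percent of each library's counts in peaks (y axis) that lay in intergenic peaks of 5 distance classes (x axis); points are the 6 libraries, marked by replicate number, and bars are group means. The aged and young points overlap in every class, and young replicate 1 is the lowest library in each.

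Among single peaks, more distal intergenic peaks were higher than lower in aged epithelium. Of the 27147 tested, 415 were higher in aged libraries (1.53%; background over all 129588 tested peaks 1.07%) and 88 were lower (0.324%; background 0.528%), at an adjusted p under 0.05 in edgeR's quasi-likelihood test. Calls were thus higher in aged in 82.5% of cases. Over all tested peaks, calls also leaned this way, with 1393 higher and 684 lower. With the replicate number as a block the counts were 714 (2.63%) and 232 (0.855%), against 1.99% and 1.10% of all tested peaks. Of the main calls, 415 of the 415 and 86 of the 88 were called again. Without young replicate 2 the count of higher peaks was 234, and without aged replicate 4 it was 273. All aged values were above all young ones in 2281 tested distal peaks (8.40%; background 7.32%) and below them in 1822 (6.71%; background 6.54%). Those shares are near the background, so they say little about distal peaks in particular. Of the called peaks, 409 of 415 and 88 of 88 had groups that did not overlap.

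The median log2 fold change of the higher peaks was 1.35, with 308 of 415 past 2-fold and 82 past 4-fold. For the lower peaks it was -1.45, with 68 of 88 past 2-fold and 19 past 4-fold. Called peaks were wider than distal peaks in general, tested or not, with medians of 309 bp for higher and 271.5 bp for lower ones. Only tested peaks could be called, and width rose with level. In 4 groups of tested peaks by mean level, from weakest to strongest, median widths were 146, 210, 304 and 492 bp. Widths were not compared at like level. Over all tested distal peaks the median log2 fold change was 0.0036, and the 10th and 90th percentiles were -0.38 and 0.47.

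**Figure D2:**
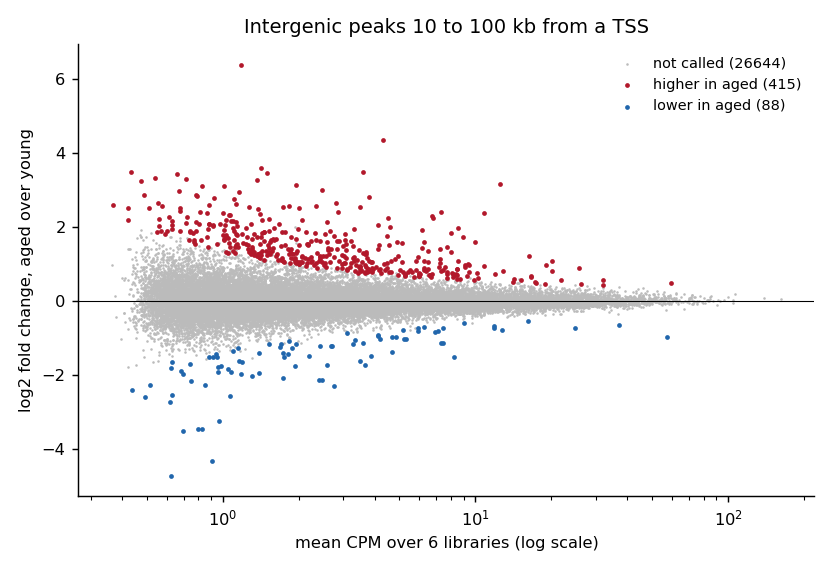
Log2 fold change, aged over young (y axis), against the mean CPM over 6 libraries on a log scale (x axis) for the 27147 tested distal intergenic peaks. The 415 peaks called higher are red, the 88 called lower are blue and the others grey; most calls lie below 10 CPM, and the single point above 6 is the peak near Ccr2.

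The tilt toward higher calls was seen in each distance bin. At 10 to 25 kb, 192 of 12642 tested peaks were higher and 40 lower, at 25 to 50 kb 142 of 8955 and 22, and at 50 to 100 kb 81 of 5550 and 26. The shares higher were 1.52%, 1.59% and 1.46%. Without young replicate 2 the counts higher were 108, 77 and 49 and the counts lower 29, 13 and 17, and without aged replicate 4 the counts higher were 128, 93 and 52. The replicate block gave 332, 250 and 132 higher and 90, 82 and 60 lower, and over all tested peaks it called 1.99% higher and 1.10% lower. Nearer intergenic peaks had 147 higher (1.11%) and 55 lower (0.416%) of 13205, and those over 100 kb away had 68 (1.84%) and 34 (0.922%) of 3686. Promoter peaks went the other way, with 119 higher (0.604%) and 170 lower (0.863%) of 19690, and exon peaks had 84 and 90 of 6772. Intronic peaks had 491 higher (0.912%) and 207 lower (0.384%) of 53859, and peaks at transcription termination sites 69 (1.32%) and 40 (0.765%) of 5229. The tilt toward higher calls was thus not particular to intergenic peaks. Whether these classes differ beyond chance was not tested, since neighbouring peaks are not independent. Upstream and downstream distal peaks had similar shares, 1.53% and 1.53% higher, and 0.371% and 0.263% lower. When tested peaks were ranked by their mean level and split into 4 groups of like size, the counts higher were 69, 128, 131 and 87 from the weakest to the strongest group, and the counts lower were 26, 21, 24 and 17.

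**Figure D3:**
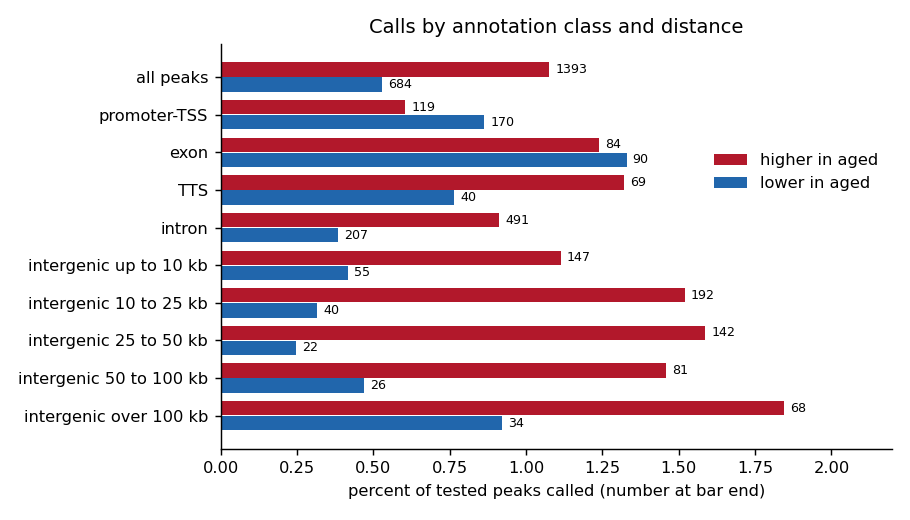
Percent of tested peaks called (x axis) higher (red) or lower (blue) in aged libraries for annotation classes of peaks (y axis), with the number of calls at the end of each bar. The 3 bins from 10 to 100 kb stand at 1.46% to 1.59% higher and 0.246% to 0.469% lower, whereas promoter peaks stand at 0.604% and 0.863%.

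By chromosome, the share of tested distal peaks that were higher ran from 1.08% (chromosome 6) to 2.35% (chromosome 8) over the autosomes. For these and the following shares, the background was 1.53% higher and 0.324% lower over all tested distal peaks. Over all tested peaks it was 1.07% and 0.528%. On chromosome X, 1 of 668 was higher (0.150%) and 3 were lower. On chromosome Y, 2 of 19 were higher, and in 8 of the 19 every aged value was above every young one (8.40% of all tested distal peaks, 7.32% of all tested peaks). The labels used here give no sex for the mice. By the type of the nearest gene, peaks next to protein-coding genes had 198 higher and 49 lower of 14707 (1.35% higher). Those next to unprocessed pseudogenes had 15 higher and 0 lower of 224 (6.70% higher in edgeR's test). There DESeq2 gave 11 higher and 0 lower, thinning gave 8 and 0, the replicate block gave 20 and 2, and leaving out single libraries gave 11 to 18 higher and 0 or 1 lower. Peaks next to rRNA entries had 10 higher of 322 (3.11%), and those next to misc_RNA entries 11 of 365 (3.01%). The rRNA count was 6 without young replicate 2, 16 with the replicate block and 4 when thinned, and the misc_RNA count was 7 in DESeq2 and 5 when thinned. With the block, 2.63% of tested distal peaks were higher and 0.855% lower, against 1.99% and 1.10% of all tested peaks. Next to processed pseudogenes 36 of 3047 were higher (1.18%), next to antisense genes 8 of 790 (1.01%), next to lincRNA genes 51 of 3156 (1.62%) and next to miRNA genes 21 of 1100 (1.91%). Next to TEC entries 23 of 949 were higher (2.42%), next to snoRNA genes 15 of 734 (2.04%) and next to snRNA genes 20 of 1005 (1.99%). Calls of 1 type can be neighbours: 4 of the 10 next to rRNA entries were nearest to n-R5s209, and 6 of the 23 next to TEC entries to Gm38357.

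Among the 10 higher peaks with the smallest p, the first lay 55685 bp upstream of the lincRNA Gm12153, on chromosome 11 (43903051 to 43903757). It had 26.9, 20.1 and 21.2 CPM in aged and 2.79, 2.53 and 1.75 CPM in young libraries. Every aged value was far above every young one, with a log2 fold change of 3.17 ± 0.17 (adjusted p = 7.357e-14, edgeR quasi-likelihood test). Of the 6 tested peaks with Gm12153 as nearest gene, 5 were higher, with log2 fold changes of 0.99 to 3.17. The second peak, on chromosome 5 (148489247 to 148490219) and 32895 bp downstream of the unprocessed pseudogene RP24-307I24.1, had 19.9, 17.6 and 17.6 CPM in aged and 3.84, 3.47 and 2.55 CPM in young libraries. Its groups also lay far apart, with a log2 fold change of 2.40 ± 0.16.

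On chromosome 1, a pair of the 10 lay upstream of n-R5s209, annotated as an rRNA gene. The peak at 27044777 to 27045268 had 8.14, 6.31 and 10.3 CPM in aged and 0.503, 0.297 and 0.319 CPM in young libraries, and the one at 27058158 to 27058601 had 5.55, 6.81 and 7.67 against 1.24, 0.743 and 0.637 CPM. Their log2 fold changes were 4.36 ± 0.29 and 2.82 ± 0.25. The first of the pair held 11, 6 and 2 counts in young libraries. It passed the filter on low counts through the aged libraries alone, so among tested peaks it had to differ, and its change is a description. The peak 40217 bp upstream of Vdac1, which encodes a channel of the outer mitochondrial membrane, had 11.6, 9.15 and 12.8 CPM in aged and 2.79, 1.63 and 2.23 CPM in young libraries. Its log2 fold change was 2.32 ± 0.20 (adjusted p = 2.249e-09, edgeR quasi-likelihood test), whereas counts at the Vdac1 promoter gave -0.07 ± 0.23 (adjusted p = 0.974). The remaining 4 of this kind, near Gm9637, Gm25773, Gm9885 and Gm17177, had means of 6.53 to 13.7 CPM in aged and 0.649 to 3.34 CPM in young libraries. Near Gm9885 the young libraries, with 13, 8 and 6 counts, did not meet the filter on low counts by themselves, so that change is a description.

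The peak 21670 bp upstream of Ccr2, the gene of a chemokine receptor of monocytes, lay on chromosome 9 (124080179 to 124080381). It held 42, 57 and 36 counts in aged replicates 1, 2 and 4 and 1, 0 and 0 counts in the young ones. Scaled for depth, the ratio of the 135 aged counts to the 1 young count was 113 (95% interval 19.9 to 4493, counting error only). This peak passed the filter on low counts through the aged libraries alone, so among tested peaks it had to differ, and its ratio is a description. The Ccr2 promoter was not among those tested. The summed promoter level of the leukocyte markers given above rests on Cd68 and Coro1a, since 8 of 10 had no promoter peak. That sum was highest in aged replicate 4 (64.3 CPM, against at most 44.2 CPM in young libraries), and its part in this result was not tested.

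The 10 lower peaks with the smallest p included several next to genes of known function. The first lay 41281 bp upstream of the lincRNA Gm15208 on chromosome 12 (107824833 to 107825811), with 4.25, 4.68 and 3.81 CPM in aged and 10.6, 13.6 and 12.3 CPM in young libraries. Its log2 fold change was -1.51 ± 0.16 (adjusted p = 1.95e-07, edgeR quasi-likelihood test), and 3 of 11 tested peaks nearest to Gm15208 were lower. This peak lies beside the one at the Gm33341 window printed above. The second lay 15988 bp upstream of Lin28b, whose protein binds let-7 precursors and blocks their maturation, on chromosome 10 (45485838 to 45486541). It had 0.863, 0.710 and 1.25 CPM in aged and 5.26, 3.76 and 4.62 CPM in young libraries, a log2 fold change of -2.29 ± 0.26. All aged values were far below all young ones.

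A peak 72843 bp upstream of Cdh5, which encodes VE-cadherin of endothelial junctions, lay on chromosome 8 (104028621 to 104028943). It had 1.11, 0.669 and 1.02 CPM in aged and 4.12, 4.21 and 3.34 CPM in young libraries. Its log2 fold change was -2.12 ± 0.26 (adjusted p = 2.647e-06, edgeR quasi-likelihood test). No promoter peak was assigned to Cdh5 or to Pecam1, another endothelial gene. The endothelial marker Kdr had 2.24, 2.38 and 3.88 CPM at its promoter in aged and 3.08, 2.70 and 5.60 CPM in young libraries. The summed promoter level of the stromal, endothelial and glial markers given above, most of which came from Pdgfra, overlapped between ages. The part of these cells in the result was not tested. The peak 24237 bp downstream of Zfp445, which encodes a zinc finger protein that maintains imprints, held 4, 4 and 2 counts in aged and 30, 37 and 13 counts in young libraries. That near Ctsll3, a cathepsin L-like gene, held 1, 0 and 3 counts against 26, 23 and 18. Both of these peaks passed the filter on low counts through the young libraries alone. Among tested peaks they had to differ, so their changes are descriptions. The peaks near Zfp706, RP23-313F5.2, Gm24715, Gm826 and Mir1247 had means of 0.936 to 4.61 CPM in aged and 3.92 to 10.2 CPM in young libraries. The 10 higher and 10 lower peaks were chosen for groups that do not overlap, so the lack of overlap is not a result. All 20 of these higher and lower peaks kept their call without each of the 6 libraries in turn. They were chosen for small p in these same libraries, and some passed the filter on low counts through 1 age alone. Keeping the call is therefore not separate support.

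**Figure D4:**
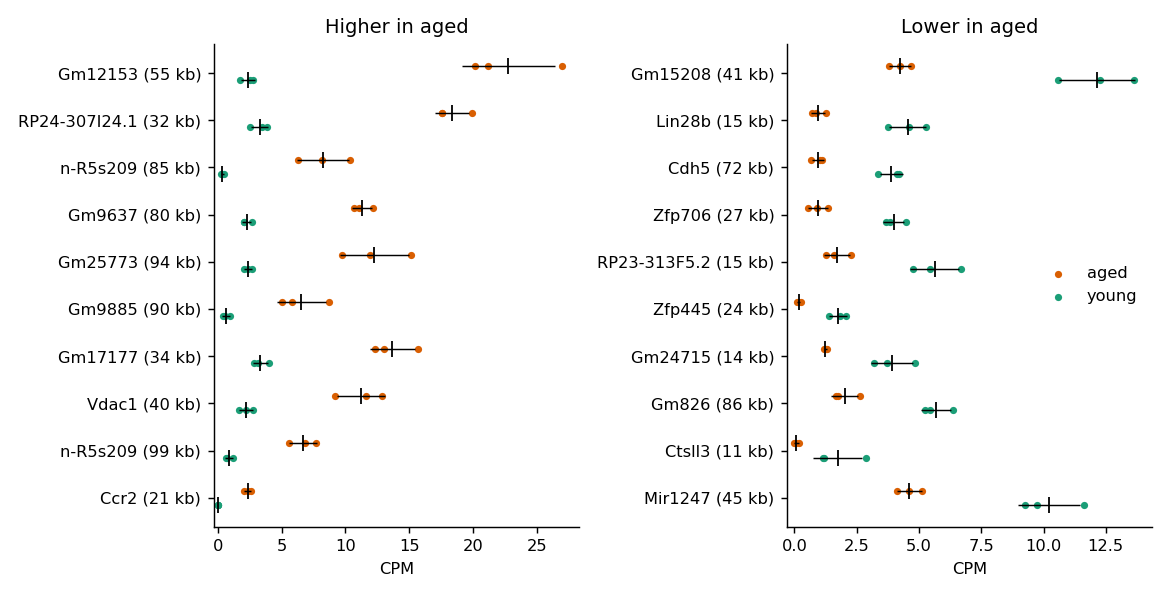
CPM (x axis) in each aged (orange) and young (green) library for the 10 higher and 10 lower distal peaks with the smallest p, named by nearest gene and distance; vertical ticks are means and bars the SD of 3 libraries. The peaks were chosen for groups that do not overlap; values run from 26.9 CPM near Gm12153 to 0 counts in 1 aged library near Ctsll3.

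Nearest genes were also read by 8 lists that fit this tissue: intestinal transcription factors, crypt and Wnt genes, absorptive enterocyte genes, secretory cell genes, AP-1 and immediate early genes, inflammation genes, leukocyte genes, and stromal, endothelial and neural genes. Few of their distal peaks changed. Next to inflammation genes 1 of 69 tested peaks was higher and 0 lower, with a median log2 fold change of 0.090. Next to AP-1 genes 1 of 32 was higher and 0 lower, with a median of 0.14, and next to absorptive enterocyte genes 1 of 45 was higher and 0 lower, with a median of 0.018. Next to stromal, endothelial and neural genes 0 of 22 were higher and 1, that of Cdh5, was lower. With the replicate block, the counts higher were 4 for inflammation, 2 for AP-1 and 1 each for crypt and Wnt, enterocyte, and stromal, endothelial and neural genes, and those lower were 1 for enterocyte and 2 for stromal, endothelial and neural genes. With the block, 2.63% of tested distal peaks were higher and 0.855% lower, against 1.99% and 1.10% of all tested peaks. In edgeR's test without the block no peak was called next to intestinal transcription factors (0 of 56), crypt and Wnt genes (0 of 61), secretory genes (0 of 39) or leukocyte genes (0 of 7). At an unadjusted p under 0.05, these 4 lists had 2, 2, 2 and 1 peaks higher and 1, 1, 1 and 1 lower. At the same threshold inflammation genes had 7 higher and 0 lower, AP-1 genes 4 and 0, enterocyte genes 2 and 2, stromal, endothelial and neural genes 1 and 2, and all tested distal peaks 1817 and 914 of 27147. Against 1.53% of all distal peaks in the fit without the block, counts of 0 or 1 in lists of this size are near the background. Whether the 4 of 69 next to inflammation genes with the block exceed its 2.63% beyond chance was not tested.

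Beside Tnfaip3, the peak at chromosome 10 (19062067 to 19062766), whose right part overlaps the Gm51814 window printed above, had 11.4, 11.3 and 14.8 CPM in aged and 6.82, 5.10 and 6.85 CPM in young libraries. Its window was among those chosen above for groups that do not overlap, and the log2 fold change was 1.02 ± 0.16 (adjusted p = 0.0001339, edgeR quasi-likelihood test). Counts at the Tnfaip3 promoter gave 0.12 ± 0.08 (adjusted p = 0.791). Upstream of Fosb, which encodes an AP-1 subunit, the peak at chromosome 7 (19321508 to 19321773) had 11.4, 9.53 and 14.8 CPM in aged and 6.77, 4.90 and 7.33 CPM in young libraries. Its log2 fold change was 0.94 ± 0.17 (adjusted p = 0.00122, edgeR), and that of the Fosb promoter was 0.01 ± 0.08. Near Apob, which encodes the apolipoprotein of chylomicrons, the peak at chromosome 12 (7937825 to 7938209) had 2.16, 2.17 and 3.46 CPM in aged and 1.05, 0.743 and 1.43 CPM in young libraries. Its log2 fold change was 1.38 ± 0.30 (adjusted p = 0.00787, edgeR), but without aged replicate 4 the adjusted p was 0.11 and without young replicate 2 it was 0.158.

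Other listed genes had a peak with the smallest p of its list that did not pass the test. Near Lgr5, which encodes the R-spondin receptor that marks crypt stem cells, the peak 37551 bp upstream had 5.30, 4.43 and 4.71 CPM in aged and 3.16, 3.12 and 2.87 CPM in young libraries. The groups did not overlap, yet the adjusted p was 0.124 for a log2 fold change of 0.63 ± 0.20 (edgeR), and 0.0297 with the replicate block. Near Isx, which encodes an intestinal homeobox factor, the values were 9.31, 8.48 and 8.69 against 7.37, 6.49 and 6.05 CPM (log2 fold change 0.39 ± 0.15, adjusted p = 0.364, edgeR). Near Neurod1, an enteroendocrine transcription factor gene, and Gzmb, the granzyme B gene of cytotoxic lymphocytes, the adjusted p values were 0.421 and 0.508 in edgeR's test.

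Joining tested distal peaks less than 10000 bp apart gave 11361 runs, of which 433 held a call and 51 held at least 2. Those 51 runs held 121 of the 503 called peaks, 112 higher and 9 lower, and the other 382 stood alone. Of the runs, 0 mixed both directions. Peaks of 1 run share their surroundings and are not independent observations. The run with the most calls lay on chromosome 3 (51182503 to 51205162), upstream of Gm38357, with 6 of 9 tested peaks higher and log2 fold changes of -0.76 to 2.55. Its strongest change was at 51201786 to 51201949, with 3.08, 2.63 and 3.18 CPM in aged and 0.320, 0.693 and 0.478 CPM in young libraries. There the young libraries, with 7, 14 and 3 counts, did not meet the filter on low counts by themselves. At 51185334, with 20, 9 and 2 counts, they did not either, so both changes are descriptions. In the same run the peak at 51200871 to 51201287 had 12.9, 13.2 and 12.3 CPM against 7.14, 7.92 and 7.33 CPM. Of the 6 calls, 3 held without each of the 6 libraries in turn. The other three lay at 51185334, 51202087 and 51202598, and their adjusted p without young replicate 2 was 0.0705, 0.300 and 0.159 (edgeR). The last was also lost without aged replicate 1 (0.056), and the middle one without aged replicates 1 and 2 and young replicate 1 (0.0576 to 0.142). Those at 51202087 and 51202598 were lost in DESeq2 too (0.163 and 0.0576) and with libraries thinned to the shallowest (0.799 and 0.509).

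The second run spanned 18585 bp of chromosome 15 (85668656 to 85687240), between Gm37699 and the let-7 gene Mirlet7c-2, and 5 of its 16 tested peaks were higher. Its calls were not spread evenly. The first 5 peaks, which include a strong one of 2232 bp at 85669011 to 85671242, had log2 fold changes of -0.13 to 0.04, and the 5 calls lay in the right part. At the called peak at 85679135 the young libraries, with 14, 13 and 2 counts, did not meet the filter on low counts by themselves. Its change is thus a description. The peak 22184 bp upstream of Mirlet7c-2 (85684312 to 85684526) had 2.96, 3.68 and 5.45 CPM in aged and 1.42, 0.991 and 0.796 CPM in young libraries, a log2 fold change of 1.81 ± 0.27 (adjusted p = 6.947e-05, edgeR quasi-likelihood test). The one 21475 bp upstream (85684937 to 85685320) was stronger, with 26.5, 25.8 and 26.9 against 18.4, 18.6 and 14.7 CPM and a log2 fold change of 0.59 ± 0.12, though with libraries thinned to the shallowest its adjusted p was 0.104 (edgeR). Counts at the Mirlet7c-2 promoter gave 0.53 ± 0.16 (adjusted p = 0.127, edgeR), which did not pass. Mirlet7c-2 (mature form at 85706616 to 85706637) and Mirlet7b (85707325 to 85707346) lie side by side there on the plus strand, and their mature miRNAs share the seed, bases 2 to 8, shown in capitals.
let-7c-5p: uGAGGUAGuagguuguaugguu
let-7b-5p: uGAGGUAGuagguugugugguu

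The let-7 miRNAs are the family whose maturation LIN28B blocks, and the peak upstream of Lin28b described above was lower in aged libraries. This pair of loci was set side by side after the values were seen, by the position of the nearest gene only. The Lin28b promoter was not among those tested, and a link between the loci was not tested. The remaining 3 of the 5 runs, near n-R5s209, Gm9637 and Gm9885, held 3 tested peaks each, all called higher, with log2 fold changes of 1.63 to 4.36. The weakest of the Gm9885 peaks, at 78662141, had an adjusted p of 0.175, 0.229 and 0.0846 without aged replicate 4, young replicate 1 and young replicate 2 (edgeR), and the other 8 kept their call without any 1 library. In these 3 runs, the peaks at 27044341, 27044777, 27045423, 19320789, 78662141 and 78678243 passed the filter on low counts through the aged libraries alone. Among tested peaks they had to differ, so their changes are descriptions. At 78669252 (13, 8 and 6 young counts) and 19321050 (12, 15 and 6) the young libraries did not meet this filter by themselves. Those changes are descriptions too.

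**Figure D5:**
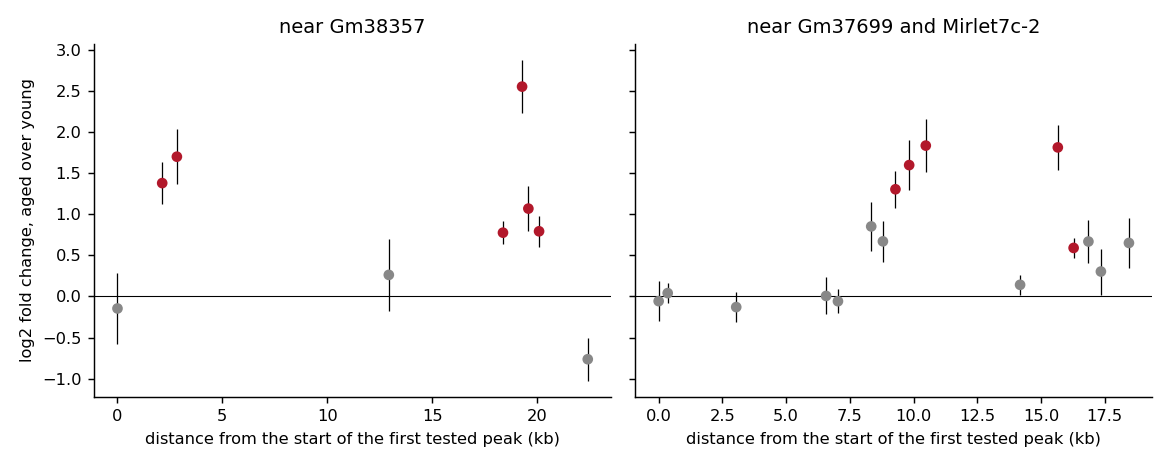
Log2 fold change, aged over young, with its SE (y axis) for each tested distal peak along the runs near Gm38357 (left) and near Gm37699 and Mirlet7c-2 (right), by distance from the start of the first tested peak in kb (x axis). Red points were called higher; on the right the 5 calls lie past 9 kb and the first 5 peaks stand near 0.

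Promoters of the nearest genes were compared in the same libraries, so both sets of values share their samples. The 415 higher peaks had 341 nearest genes, of which 147 had a tested promoter, and 6 of these were higher and 0 lower in aged libraries (edgeR; background over 13880 promoters 0.771% higher and 0.973% lower). The 88 lower peaks had 82 nearest genes and 36 tested promoters, of which 0 were higher and 4 lower. Leaving out single libraries gave 4 to 6 higher promoters beside the higher peaks, 4 of them without young replicate 2, and 3 or 4 lower ones beside the lower peaks. The replicate block gave 10 higher promoters beside the higher peaks. The median promoter log2 fold change was 0.036 beside higher peaks, -0.053 beside lower ones and -0.0017 over all promoters. Most promoters next to a changed distal peak therefore had no call of their own. Of the 3534 tested promoters nearest to any tested distal peak, 21 were higher and 22 lower. The 6 of 147 and 4 of 36 with a call in the direction of their peak are larger shares than these. Whether they differ beyond chance was not tested.

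Promoter levels are given as CPM of promoter counts. Rgs2, which encodes a regulator of G protein signalling, had 101.5, 102.1 and 103 at its promoter in aged and 81.3, 70.2 and 66.4 in young libraries (log2 fold change 0.47 ± 0.09). Its distal peak at 14648 bp gave 0.72 ± 0.19, which did not pass in DESeq2 (adjusted p = 0.124) or in edgeR without aged replicate 2, aged replicate 4, young replicate 2 or young replicate 4 (0.0933 to 0.261). Ceacam12, of the carcinoembryonic antigen adhesion family, had 13.8, 16.8 and 11.9 against 3.86, 5.67 and 8.11 at its promoter, with 1.43 ± 0.26 there and 2.11 ± 0.45 at its distal peak (adjusted p = 0.00643 in edgeR, 0.0511 in DESeq2, and 0.0852 in edgeR without aged replicate 4). The Ceacam12 distal peak held 5, 7 and 1 counts in young libraries. It passed the filter on low counts through the aged libraries alone, so among tested peaks it had to differ, and its change is a description. Gm12153 had 1.94 ± 0.27 at its promoter and 3.17 ± 0.17 at its distal peak. The other genes whose promoter was higher were Gm10451, A630075F10Rik and Gm28155, with log2 fold changes of 0.63 to 1.87.

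Among lower ones, Gpc3, which encodes a heparan sulfate proteoglycan of the cell surface, had 4.88, 5.38 and 10.9 at its promoter in aged and 16.4, 19.2 and 14.2 in young libraries (log2 fold change -1.29 ± 0.25). Its distal peak on chromosome X (52632757 to 52632898) gave -2.40 ± 0.55. Map10, which encodes a microtubule-associated protein, had -0.82 ± 0.16 at its promoter and -1.51 ± 0.38 at its distal peak. In DESeq2 neither distal peak passed, with adjusted p of 0.12 near Gpc3 and 0.212 near Map10. In edgeR the call near Gpc3 was lost without aged replicate 1, aged replicate 4, young replicate 1 or young replicate 2 (0.0671 to 0.185), and that near Map10 without aged replicate 2, aged replicate 4 or young replicate 2 (0.106 to 0.444). Gm37777 and Gm5784 had promoter log2 fold changes of -4.56 ± 0.37 and -3.21 ± 0.54, and their distal peaks gave -3.44 ± 0.53 and -2.08 ± 0.32. The distal peaks near Gpc3 and Gm37777 passed the filter on low counts through the young libraries alone. Among tested peaks they had to differ, so their changes are descriptions. Near Gm5784 (11, 23 and 5 aged counts) and Map10 (11, 10 and 7) the aged libraries did not meet this filter by themselves. Those distal changes are descriptions too.

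The annotation that defines the class matters for some of these peaks. RefSeq (GRCm38.p6) places 6665 of the 32598 inside a gene body, with 83 higher and 34 lower of 5690 tested (1.46% and 0.598%). The 25933 outside any RefSeq gene had 332 higher and 54 lower of 21457 tested (1.55% and 0.252%). Of the 10 lower peaks with the smallest p, those near Gm15208, Lin28b, Cdh5, Zfp445, Gm826 and Mir1247 overlap a RefSeq gene body. Of the 10 higher ones, those near Gm9885 and Gm17177 do. The strongest distal peak, near Zfp36l2, does too, so by RefSeq these peaks are not intergenic. Just outside 10000 bp, a peak 10000 bp from Pafah2 had 4.56, 3.76 and 3.52 CPM in aged and 1.83, 2.23 and 1.59 CPM in young libraries. Just inside, a peak 10001 bp from Gm13368 was too weak to be tested. At the far limit, the peak 99987 bp from Gprin3 had 0.986, 0.794 and 1.99 against 1.24, 1.04 and 1.59 CPM, and the excluded one 100011 bp from Irx4 had 7.64, 9.78 and 8.46 against 7.69, 8.62 and 5.89 CPM.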

How the data were processed

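The authors deposited raw read counts per consensus peak, 1 column per library with its 4 lanes joined, and an annotation with each peak's nearest TSS. Per the submitters' processing notes, the build was GRCm38 and the tools included BWA 0.7.17-r1188, MACS2 2.2.7.1 and featureCounts 2.0.1; for settings, any Tn5 shift and the annotation's release the sources used here give nothing. The distance to the TSS, per the file headers, is signed, and its absolute value was used. All 150646 peaks were fitted with edgeR 4.0.16 (R 4.3.3): filterByExpr at 10 counts, TMM scaling, a robust quasi-likelihood test on age, Benjamini-Hochberg adjustment over 129588 peaks, threshold 0.05. SE is the log2 fold change over the square root of F. CPM are per TMM-scaled library. Promoter counts were fitted likewise. Named were the 10 called peaks without overlap of smallest p per direction, the 5 strongest, 1 per list, the limits, and 5 runs; the peaks at RefSeq starts and beside called promoters were added afterwards. Members, lists and tests were chosen with earlier results of these data known. The main test was on age alone, so its p-values and SE ignore any pairing of libraries. Replicate numbers were taken to pair libraries only where a replicate block is named. The block was fitted because same-numbered libraries deviated together (r of 0.265, 0.199 and 0.148) and other pairs less (-0.205 to 0.0285). The code was tested on simulated data. Intervals cover counting error only, since PCR copies are not independent. No genome was used, so motifs were searched in RefSeq start windows in place of peak centres.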

Additional observations from a re-analysis of the deposited data

How the results depend on the processing

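Of the distal intergenic peaks, 415 were higher and 88 lower in aged libraries. With an adjusted p below 0.01 these counts were 242 and 51, with DESeq2 251 and 58, with a filter at 30 counts 274 and 50, with libraries thinned to the shallowest 142 and 30, and with the replicate block (pairing libraries by number) 714 and 232. The filter at 30 counts and thinning also tested fewer peaks (16635 and 16687). RLE scaling, total count scaling and no filter stayed within 1.5 times of both counts. Leaving out 1 library gave 234 (without young replicate 2) to 433 higher and 59 to 99 lower peaks. Calls were higher in 75.5% (block) to 86.4% (without young replicate 4) of cases under all settings. Over all tested peaks, higher calls also outnumbered lower ones in every setting, with 1393 and 684 in the main fit and 2578 and 1420 with the block.

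The difference in the share of counts, aged minus young, ran without single libraries from -0.285 to 0.400 percentage points for all distal peaks. It ran from -0.0949 to 0.195 at 10 to 25 kb, from -0.0992 to 0.127 at 25 to 50 kb and from -0.0912 to 0.0783 at 50 to 100 kb. For intergenic peaks up to 10 kb it ran from -0.0666 to 0.162, and for those over 100 kb from -0.100 to 0.0291. These tests could not pass the threshold at this size, so their p-values say nothing about stability. The smallest possible p was 0.1 with all 6 libraries, and 0.25 for the sign flip of the replicate block, which has the same difference of 0.0839. With 1 library left out, no permutation p was below 0.2.

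Of 70 named peaks, recomputed values gave 801 of 882 on the same side of the threshold with the same sign, 70 no longer past it, 2 newly past it (Bvht and Lgr5, with the block) and 9 of opposite sign, the latter all in peaks without a call. Those were Gm6651 when thinned (-0.00024), Gpr37l1 when thinned (0.012) and without single libraries (-0.11 to 0.026), Zfp36l2 without single libraries (-0.027 to 0.14), and Gprin3 with DESeq2 (-0.00095), with the replicate block (-0.15) and without single libraries (-0.47 to 0.30). The cause of these changes was not tested. The promoter fits and the counts by gene type and list were recomputed by alternatives chosen after seeing the data. Young replicate 4, with a median of 11 counts per distal peak, was the shallowest library, and no detection limit was computed.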
